A study of Mus musculus with 4 samples.

Results

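The regulators of the muscle cells that enter the limb bud examined here were Pax3, Pax7, Lbx1, Six4, Met, Myf5, Myod1 and Myog, 8 of 21938 protein-coding genes. For each gene, all accessible regions that overlapped its gene body or 50 kb on either side of it were collected. This gave 46 of the 44692 regions found in the 4 libraries. Of these, 35 lay at the 5 genes of migrating progenitors (Pax3, Pax7, Lbx1, Six4 and Met). The other 11 lay at the 3 genes of muscle commitment and differentiation (Myf5, Myod1 and Myog), called differentiation genes here. ATAC-seq maps open chromatin by letting the transposase Tn5 insert adapters where DNA is exposed. The tissue was the posterior part of the forelimb bud of mouse embryos at E10.5, staged at 35 somites, on a Swiss Webster background. Each library came from the posterior forelimb parts of a single embryo, with 5000 cells per reaction. There were 2 wild-type (WT) libraries and 2 Shh-/- libraries, the latter from embryos with the Shh tm1amc null allele, which make no functional Sonic hedgehog (SHH) ligand. The comparison of the genotypes asks whether chromatin at these genes is open without SHH.

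Limb muscle does not arise in the limb bud itself. Its progenitors leave the lateral edge of the somites and migrate into the bud, where they later activate the myogenic regulatory factors and differentiate. Pax3 and Pax7 encode paired-box transcription factors of muscle progenitors, Lbx1 a homeodomain factor needed for lateral migration, Six4 a homeodomain factor that binds MEF3 sites, and Met the receptor for hepatocyte growth factor, which releases the cells from the somite. Myf5, Myod1 and Myog encode basic helix-loop-helix factors that bind E-boxes and drive muscle commitment and differentiation. Muscle progenitors are a minority among the mesenchymal cells of the bud, and these libraries hold all cell types together, so fewer cells of a type and less accessibility per cell cannot be told apart.

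Replicates 1 and 2 are written rep1 and rep2 from here. The deposited data are 1 list of peaks per library, with 39080 peaks in WT rep1, 11973 in WT rep2, 5589 in Shh-/- rep1 and 18459 in Shh-/- rep2. WT rep1 stands apart: 51.6% of all regions were called in it alone. The lists hold no read counts, so the depth reached by each library cannot be read from them, although the study gives a common target depth, and chromatin that is absent from a list may still be open. Each peak carries a score, by the format of the peak caller 10 times the −log10 of the q-value at its summit. Scores were read only within their own list, as the rank of a peak given in percent of the list, with 0% at the top. Many peaks share a score (4835 peaks of WT rep1 had a score of 32), and tied peaks share the best rank. Promoters of limb mesenchyme genes were read as a description of the labelled tissue. An open promoter does not show expression, so these calls cannot establish the tissue. All 8 markers examined (Prrx1, Prrx2, Tbx5, Msx1, Msx2, Twist1, Lhx9 and Hand2) were called in WT rep1, 4 in WT rep2, 3 in Shh-/- rep1 and 5 in Shh-/- rep2, and Prrx1 was called in all 4 libraries. Over all protein-coding genes the called shares were 60.4%, 39.2%, 17.3% and 51.3% in that order, so the calls in WT rep2 and Shh-/- rep2 lay near those of any gene.

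Promoters were called at 4 of the 5 progenitor genes in at least 1 library, and at 0 of the 3 differentiation genes. A promoter was taken as 2 kb before to 1 kb after any transcription start site (TSS) of a gene. Of the 5 progenitor genes, 4 promoters were called in WT rep1 (Pax3, Lbx1, Six4 and Met), where 60.4% of all protein-coding genes had a called promoter. In WT rep2 the promoters of Lbx1 and Six4 were called, 2 of 5, against 39.2% of all genes, but 0 were called within 500 bp of a TSS in this library. In Shh-/- rep1 only that of Six4 was called among the 8 members, against 17.3% of all genes. In Shh-/- rep2 the same 4 promoters as in WT rep1 were called, against 51.3% of all genes. Myf5, Myod1 and Myog had 0 called promoters in each of the 4 libraries, and so did Pax7. A promoter called in 0 libraries was found in 37.9% of all protein-coding genes, so a promoter without a call is common. The progenitor counts in WT rep2 and Shh-/- rep1 were close to the shares of all genes. Over all 8 members, 4, 2, 1 and 4 promoters were called in WT rep1, WT rep2, Shh-/- rep1 and Shh-/- rep2. In each library this was no higher than the share of all genes. The difference between the classes was not tested.

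**Figure D1:**
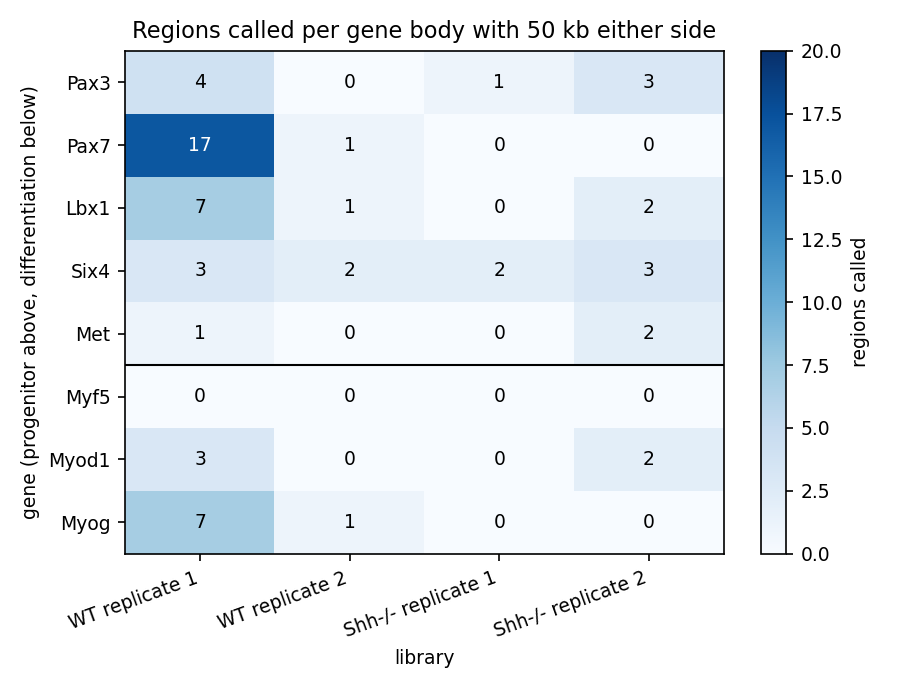
Number of accessible regions called in each library (columns) at each gene with 50 kb either side (rows, progenitor genes above the line, differentiation genes below it). The colour and the printed number give the same count, and the 17 regions of Pax7 in WT rep1 are the highest value while Myf5 is at 0 in every library.

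Pax3 marks the progenitors from the somite onward. Its gene body lies on the minus strand of chromosome 1 (mm10, chr1:78101267-78197134), and 5 regions were called in its window. The region called most often was in an intron, at chr1:78129195-78129645, with its summit 67.7 kb downstream of the TSS. It was called in WT rep1 with a score of 60 (rank 35.1%), in Shh-/- rep1 with a score of 42 (rank 71.3%) and in Shh-/- rep2 with a score of 38 (rank 74.5%). It was not called in WT rep2. The 3 summits lay within 53 bp of each other, against a median spread of 121 bp over the 15989 regions called in at least 2 libraries. Regions called in 3 libraries made up 13.6% of all regions, and this one was the only such region among the 46. The 200 bp around its summit are shown since this is the best shared site of the central progenitor gene. They are read from the plus strand of GRCm38.p6, the assembly of mm10, at chr1:78129372-78129571, and capitals mark the E-box CAGCTG.

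Pax3 intron region: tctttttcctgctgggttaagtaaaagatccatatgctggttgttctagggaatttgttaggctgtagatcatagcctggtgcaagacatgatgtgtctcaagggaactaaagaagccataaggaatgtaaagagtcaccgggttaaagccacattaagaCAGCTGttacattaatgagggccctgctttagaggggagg

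The GC content of this sequence was 43.5%, the lowest among the 46 regions, which reached 77.5%. The Pax3 promoter region, chr1:78196827-78197280, overlapped exon 1. It was called in WT rep1 (score 32, rank 60.1%) and in Shh-/- rep2 (score 46, rank 67.6%), with summits 3 bp apart. Both ranks lay well below the middle of the called promoters of all genes, whose median rank was 17.4% in WT rep1 and 30.1% in Shh-/- rep2. The 3 other Pax3 regions were each called once. WT rep1 had an intronic region 7.15 kb downstream of the TSS (score 38) and an intergenic region at -6.34 kb (score 32). Shh-/- rep2 had an intergenic region at -20.1 kb, chr1:78217012-78217496, with a score of 78 (rank 48.7%) and a GC content of 77.5%.

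Pax7, the close relative of Pax3 that is best known from later fetal progenitors and satellite cells, had the most regions, and each was called in a single library. Of the 18 regions in its window (gene body chr4:139737062-139833528, minus strand), 17 were called in WT rep1 alone and 1 in WT rep2 alone. No region was called in a Shh-/- library, and none overlapped the promoter. The regions were spread over the locus, with 10 in introns, 2 at exons 5 and 7 of 9, and 6 between genes, from -39.1 kb to 142 kb relative to the TSS. The WT rep1 peaks were weak. Their scores ran from 14 to 45 with a median of 25.0, against a median of 32.0 over the 23064 regions that were called in WT rep1 alone. All 17 had a score below 50, as did 83.3% of those 23064 regions. The best ranked of them was intronic, chr4:139747005-139747570, with a score of 45 (rank 43.9%). The region of WT rep2, chr4:139763508-139763717, had a score of 49 (rank 46.6%) and lay in the same intron-rich stretch without overlapping a peak of WT rep1. A count of 18 or more regions was found in 7.58% of the windows of all protein-coding genes, and in 6.40% of 1343 windows of genes within a factor of 1.25 of its length. At equal list size, with the 5589 top peaks of each list, the Pax7 window held 0 peaks in all 4 libraries. Peaks tied at the cut were taken in order of chromosome name and position. The WT rep2 peak of the Pax7 window had rank 5578 and was 1 of 879 peaks with a score of 49. Its absence from the cut list thus rested on the order of ties.

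Lbx1 had 7 regions, 3 of them at its promoter. The gene is short (chr19:45232684-45235812, minus strand), and the promoter regions stood in a row with gaps of 236 bp and 164 bp. The region over exon 1, chr19:45234927-45235336, was WT-specific, meaning that each WT library and neither Shh-/- library had a peak in it. Its scores were low, 32 in WT rep1 (rank 60.1%) and 20 in WT rep2 (rank 85.7%), and its summits, 604 bp and 850 bp downstream of the TSS, lay 246 bp apart. This was the only WT-specific region among the 46, and 2.09% of all regions were WT-specific. With a score of at least 50, or without WT rep2 in the definition, the count of 1 became 0 and 32, so it rested on weak peaks and on the second WT list. The other promoter regions were called in WT rep1 and Shh-/- rep2. The region over the TSS, chr19:45235573-45236037, had a score of 25 in WT rep1 (rank 72.5%) and 54 in Shh-/- rep2 (rank 61.7%). The region upstream of it, chr19:45236202-45237171, had a score of 25 in WT rep1 (rank 72.5%) and 87 in Shh-/- rep2 (rank 45.3%). The Lbx1 promoter was thus called in 1 of 2 Shh-/- libraries, at bases next to the WT-specific region. No region in any of the 8 windows was Shh-specific, that is, with a peak in each Shh-/- library and in neither WT library, against 0.396% of all regions. The 4 distal regions of Lbx1 were called in WT rep1 alone, the best ranked at -6.90 kb, chr19:45242640-45242841, with a score of 45 (rank 43.9%).

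Six4 was the most consistently called member. Its promoter region, chr12:73111585-73113785, was called in all 4 libraries, which held for 16.1% of all protein-coding genes. The scores were 168 in WT rep1, 57 in WT rep2, 99 in Shh-/- rep1 and 165 in Shh-/- rep2. The ranks were 16.5%, 40.8%, 34.2% and 26.5% in the same order, and they were better than the median rank of called promoters (17.4%, 31.1%, 38.3% and 30.1%) in every library but WT rep2. The peaks did not share 1 position. Those of WT rep1 and Shh-/- rep2 were broad and had summits 67 bp and 47 bp downstream of the TSS, and that of Shh-/- rep1 had its summit at -43 bp. The peak of WT rep2 lay inside the gene with its summit 709 bp downstream. The 4 summits spanned 752 bp, and 97.9% of the regions called in at least 2 libraries spanned as little or less. The sequence before the TSS is shown since no other member promoter was called in every library. It is read on the minus strand of chr12:73113457-73113675 from the RefSeq promoter table (GRCm38.p6). None of the letters searched below occurs in it, so it has no capitals. The peak of WT rep2 did not overlap these bases.

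Six4 promoter: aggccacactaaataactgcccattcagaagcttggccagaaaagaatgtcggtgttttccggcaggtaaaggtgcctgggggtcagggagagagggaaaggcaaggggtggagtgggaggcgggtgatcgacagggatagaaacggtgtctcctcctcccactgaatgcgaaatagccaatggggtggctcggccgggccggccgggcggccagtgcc

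The Six4 promoter was among the 2 of 46 regions called in all 4 libraries, and 7.97% of all regions were.

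Met had only 2 regions in a window of 210 kb. The promoter region, chr6:17463560-17464312, overlapped exon 1 and was called in WT rep1 with a score of 68 (rank 32.3%) and in Shh-/- rep2 with a score of 24 (rank 91.4%), near the end of that list. The summits were 60 bp apart. The other region, chr6:17589335-17589785, lay beyond the 3′ end of the gene, 126 kb from the TSS, and was called in Shh-/- rep2 alone (score 70, rank 52.7%). The gene body, which runs over chr6:17463800-17573980, held no called region apart from the promoter.

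**Figure D2:**
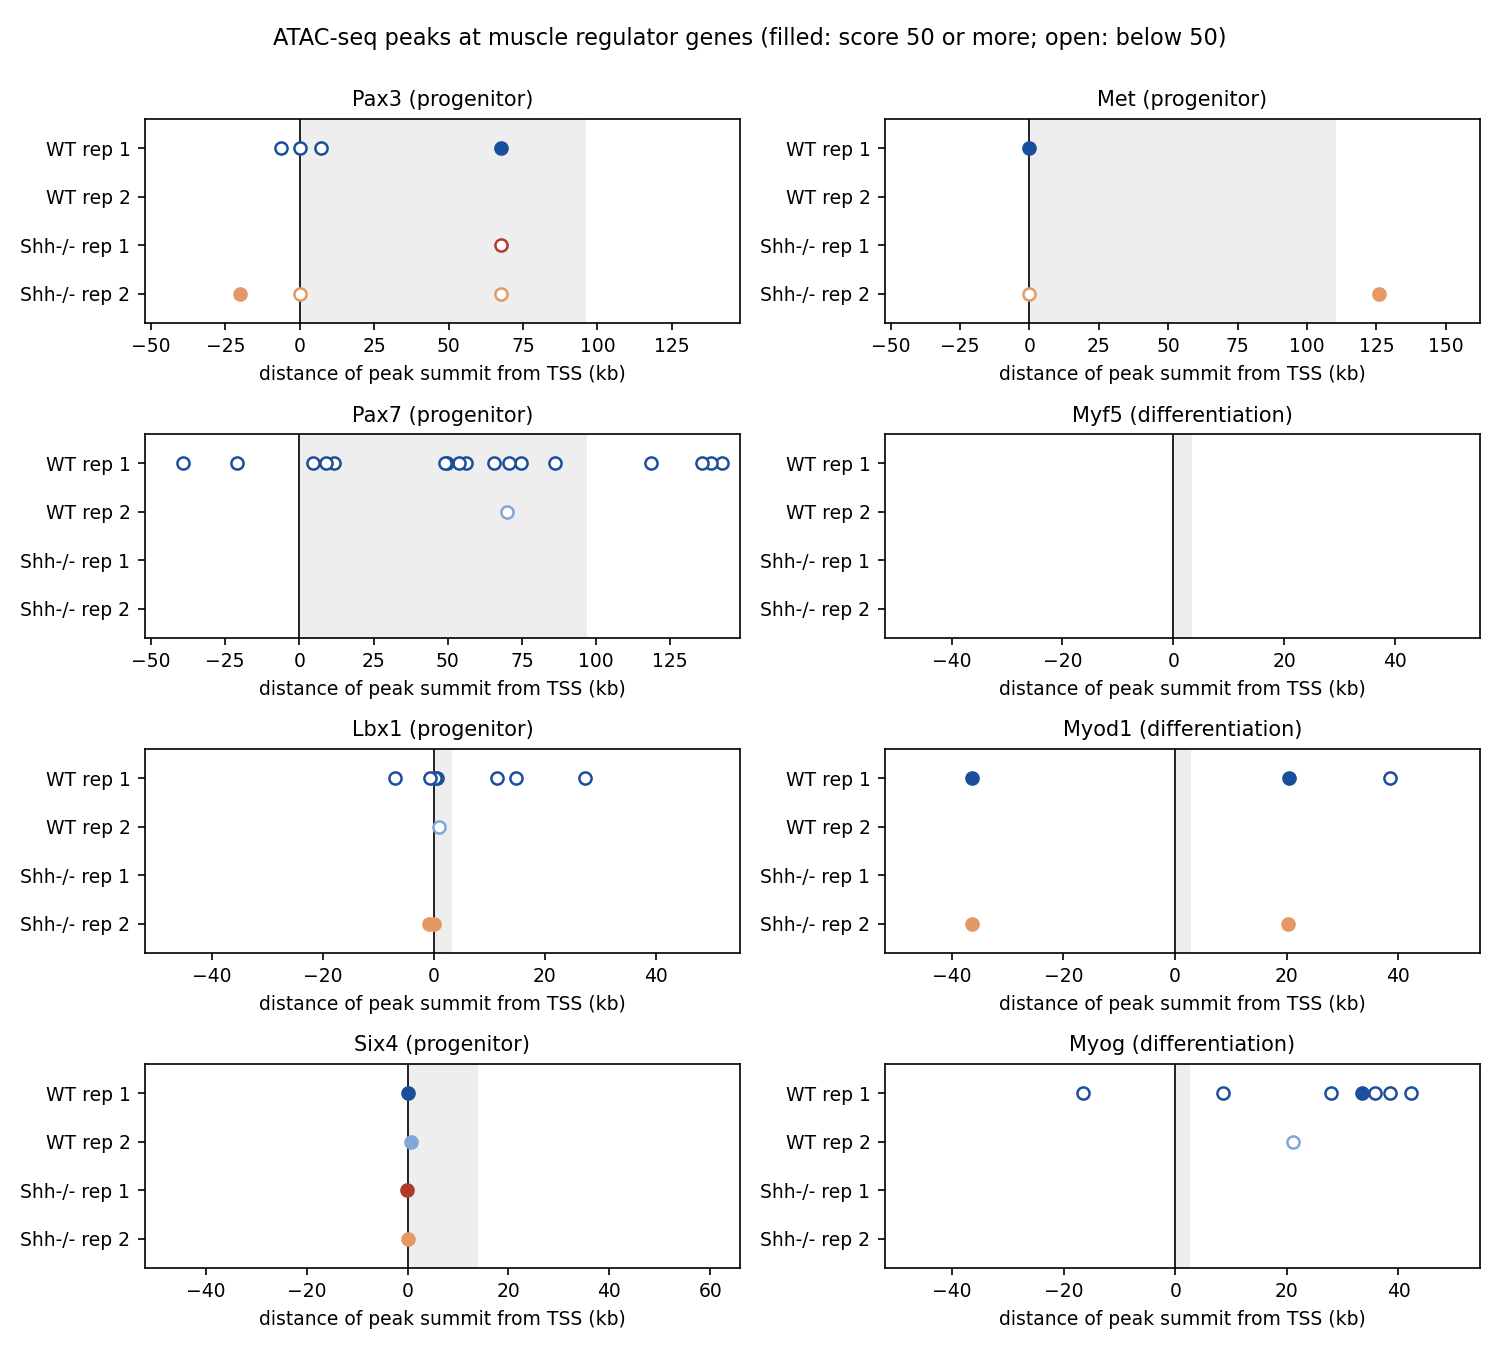
Position of the peaks reported at the 8 genes, as the distance of its summit from the TSS in kb (x axis, positive in the direction of transcription) for each library (y axis). Grey marks the gene body, the vertical line the TSS, filled circles a score of 50 or more and open circles a lower score, and of the places drawn the Six4 promoter is the only one with a circle in all 4 libraries.

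Among the differentiation genes, Myf5, the earliest myogenic factor, had 0 regions in each of the 4 libraries. Its window (gene body chr10:107482908-107486134, minus strand) also holds Myf6, a further myogenic factor, and the end of Ptprq. Windows with 0 regions made up 18.6% of all protein-coding genes, and 25.8% of the 1210 windows around genes of like length, so a window without a region is common. The promoter sequence is shown because nothing was called over it. It is read on the minus strand of chr10:107486135-107486384 from the RefSeq table (GRCm38.p6) and holds none of the letters searched.

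Myf5 promoter: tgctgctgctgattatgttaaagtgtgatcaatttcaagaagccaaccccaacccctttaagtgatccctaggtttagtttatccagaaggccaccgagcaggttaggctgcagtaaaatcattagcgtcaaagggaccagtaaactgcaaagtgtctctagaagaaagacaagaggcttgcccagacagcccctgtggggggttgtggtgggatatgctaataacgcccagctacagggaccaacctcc

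Myod1 (chr7:46376474-46379099, plus strand) had 3 regions, none of them at its promoter or in its body. The best ranked was intergenic, chr7:46339945-46340444, at -36.4 kb. It was called in WT rep1 with a score of 84 (rank 27.8%) and in Shh-/- rep2 with a score of 78 (rank 48.7%), with summits 6 bp apart. This was the best ranked distal region of all 8 windows in WT rep1. The others belonged to Kcnc1, a potassium channel gene, with a region at its promoter (chr7:46396050-46397090) called in the same pair of libraries with scores of 53 and 54, and a region in its intron called in WT rep1 alone (score 20). The upstream region is printed as the strongest site near a gene of muscle commitment, from the plus strand of chr7:46340005-46340204 (GRCm38.p6), and capitals mark the E-box CAGCTG and the homeodomain core TAATTA.

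Myod1 upstream region: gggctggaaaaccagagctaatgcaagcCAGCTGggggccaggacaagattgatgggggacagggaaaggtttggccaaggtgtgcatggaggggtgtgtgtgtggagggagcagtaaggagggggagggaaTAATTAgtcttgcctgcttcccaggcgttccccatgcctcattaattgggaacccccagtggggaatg

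Myog, the factor of terminal differentiation, had 8 regions in its window (gene body chr1:134289989-134292548, plus strand), but 7 of them lay in the neighbouring gene Ppfia4, which encodes a synaptic scaffold protein. The remaining region, at -16.6 kb, was called in WT rep1 alone (score 32). All 8 regions were called in a single library, 7 in WT rep1 and 1 in WT rep2 (chr1:134311025-134311236, score 20, rank 85.7%). The best ranked was in an intron of Ppfia4, chr1:134323166-134323544, with a score of 60 (rank 35.1%). The Myog promoter is shown for its match to the MEF3 core. It is read on the plus strand of chr1:134289754-134289988 from the RefSeq table (GRCm38.p6), and capitals mark TCAGGTT, whose first base is at -69 bp from the TSS.

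Myog promoter: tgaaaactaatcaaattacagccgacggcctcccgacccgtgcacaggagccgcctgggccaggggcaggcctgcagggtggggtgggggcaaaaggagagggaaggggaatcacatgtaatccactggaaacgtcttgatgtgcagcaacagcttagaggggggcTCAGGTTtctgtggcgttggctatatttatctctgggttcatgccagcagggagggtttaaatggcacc

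The called promoters of the members were mostly weak within their lists. Of the 4 called in WT rep1, the median rank was 46.2%, against 17.4% over the 13250 genes called. In Shh-/- rep2 the median of the 4 was 56.5%, against 30.1% over 11249 genes. Pax3 and Lbx1 at 60.1% in WT rep1 ranked below the 75th percentile of that library, 32.3%, and Met lay at it. In Shh-/- rep2 Pax3 and Met lay past the 75th percentile of 52.7%, and Lbx1 at 45.3% did not. Lbx1 was past that of WT rep2 as well (85.7% against 53.9%). Six4 was inside the 75th percentile in each of the 4 libraries, at 63.0% in Shh-/- rep1. A peak covered a TSS of the gene for 4 of 4 called members in WT rep1, where this held for 86.0% of called promoters, and for 0 of 2 in WT rep2, against 80.9%. It did so for Six4 in Shh-/- rep1 (67.3% of called promoters) and for 4 of 4 members in Shh-/- rep2 (87.3%).

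**Figure D3:**
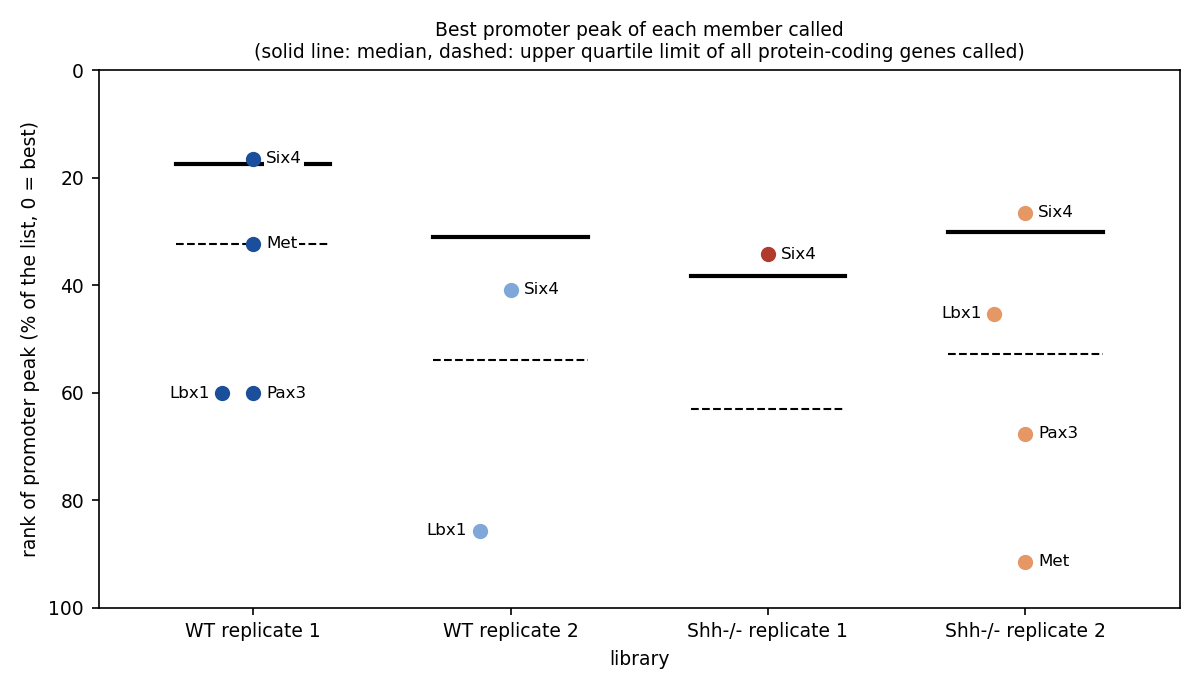
Rank of the best promoter peak of each member called, in percent of the peak list of its library (y axis, 0 at the top is the best), for each library (x axis). Solid lines give the median and dashed lines the 75th percentile over all protein-coding genes called in that library, and Six4 is the best ranked member in each of the 4 libraries.

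In the 8 windows together, 42 regions were called in WT rep1, 5 in WT rep2, 3 in Shh-/- rep1 and 12 in Shh-/- rep2. The Pax7 window held 17 of those in WT rep1, 1 in WT rep2 and 0 in both Shh-/- libraries. A region was called at 7 of the 8 genes in WT rep1, where 80.4% of all protein-coding genes had one in such a window. This was so for 4 genes in WT rep2 (66.9% of all genes), 2 in Shh-/- rep1 (44.0%) and 5 in Shh-/- rep2 (75.0%). The mean was 23.5 ± 26.2 regions in WT and 7.50 ± 6.36 in Shh-/- (SD, n = 2). The difference of 16.0 (two-sided exact permutation test, p = 0.667) was below the SD of WT and above that of Shh-/-. With 2 libraries against 2 the smallest p-value possible is 0.333, so this test could not pass 0.05. Without WT rep1 the difference was -2.50, with more regions in Shh-/- than in WT.

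The lists differ in size, so the same counts were also taken as a share of each list. The windows held 0.107% of the peaks of WT rep1, 0.0418% of WT rep2, 0.0537% of Shh-/- rep1 and 0.0650% of Shh-/- rep2, and they cover 0.0414% of the genome. In peaks per Mb this was 37.2, 4.43, 2.66 and 10.6 in the windows, against 14.3, 4.39, 2.05 and 6.77 over the genome. WT rep1 had the largest excess with the full lists. With a score of at least 50 its value was 6.21 in the windows against 6.29 over the genome, and that of Shh-/- rep2 was 7.98 against 4.58. At equal list size, the top 5589 peaks of every list, WT rep1 had 0 peaks in the windows, and Shh-/- rep1 had 2.66 per Mb against 2.05 over the genome. The mean share was 0.0746% ± 0.0465 in WT and 0.0593% ± 0.00801 in Shh-/- (SD, n = 2). The difference of 0.0153 percentage points (two-sided exact permutation test, p = 1.0) was likewise below the SD of WT and above that of Shh-/-. Without WT rep1 it was -0.0176 percentage points. When only peaks with a score of at least 50 were kept, 12 regions remained, 7 in WT rep1, 1 in WT rep2, 2 in Shh-/- rep1 and 9 in Shh-/- rep2. The difference in regions was then -1.50 and that in share -0.0318 percentage points, both of the reverse sign.

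Most regions rested on the longest list. Of the 46, 31 were called in WT rep1 alone (67.4%, against 51.6% of all regions), and 7 in WT rep1 and Shh-/- rep2 alone, the longest list of each genotype (15.2%, against 11.0%). The promoters of Pax3 and Met were called in just this pair, a pattern of 11.8% of all protein-coding genes. At the differentiation genes 8 of 11 regions were called in WT rep1 alone, and at the progenitor genes 23 of 35, with 17 of these at Pax7. Of the 35 regions at progenitor genes, 9 were called in at least 2 libraries, 2 for Pax3, 3 for Lbx1, 3 for Six4 and 1 for Met. Of the 11 at differentiation genes it was 2, both in the Myod1 window, and 1 of them was the Kcnc1 promoter. Over the whole series, 15989 of 44692 regions were called in at least 2 libraries. The windows also differed in length, from 103 kb to 210 kb at the progenitor genes and 103 kb at each differentiation gene. The regions of both classes had a median GC content of 55.5%, equal to the median over all regions. Repeats made up a median of 5.79% of a member region, against 5.92% over all regions.

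The called promoters had more CpG than the uncalled ones among the members that could be looked up. The RefSeq promoter table, with 250 bases before and 50 after each gene's start, held 5 of the 8 members (Pax7, Six4, Met, Myf5 and Myog) and had no entry for Pax3, Lbx1 and Myod1. The ratio of observed over expected CpG was 0.163 at Myf5 and 0.373 at Myog, the promoters of differentiation genes. It was 0.581 at Pax7, 0.713 and 0.640 at the promoters of the Six4 TSSs, and 0.794 at Met. Of 7623 promoters with a ratio below 0.4, 88.9% had no peak in any library, against 42.7% from 0.4 to 0.6 and 10.03% at 0.6 or more. In WT rep1, 10.02% of promoters in the lowest class had a peak, and 87.6% in the highest. In Shh-/- rep1, the shortest list, these shares were 0.944% and 27.0%. The uncalled promoters of Myf5 and Myog thus lay in the class that was rarely called for any gene, while Pax7 lay in the middle class. The part of CpG content in the difference between progenitor and differentiation genes was not tested.

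**Figure D4:**
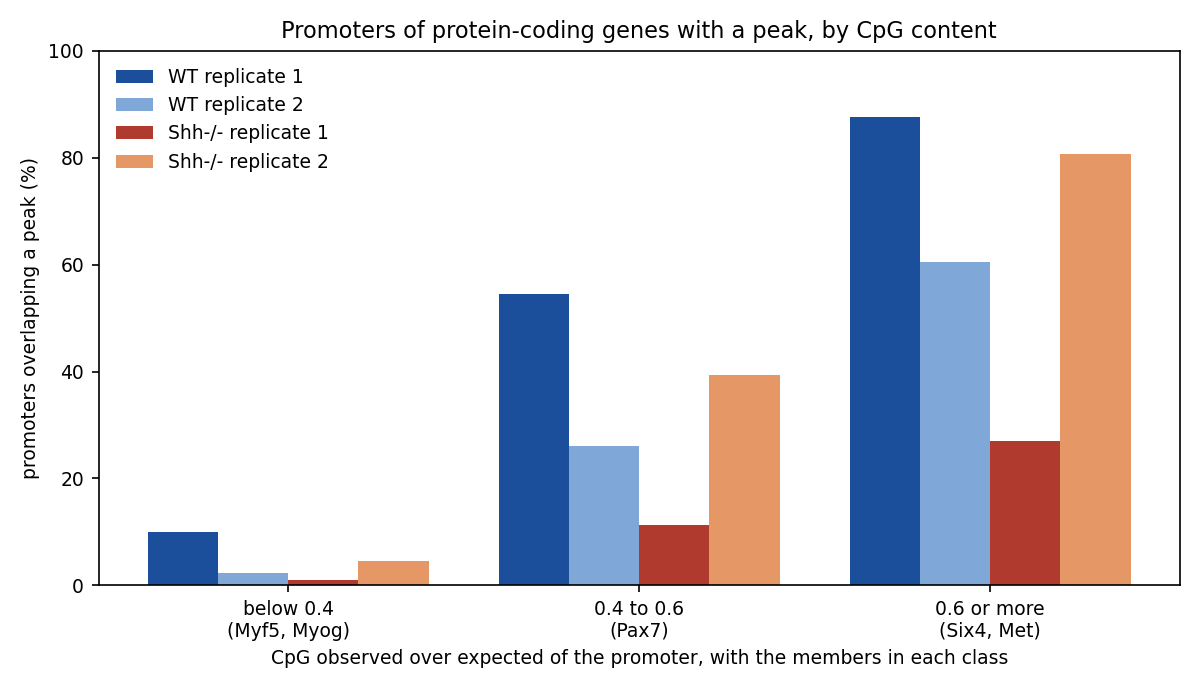
Share of protein-coding promoters that overlapped a peak (y axis, percent) in each library (bars), by the observed over expected CpG ratio of the promoter (x axis, with the members in each class). The share in WT rep1 is 10.02% below a ratio of 0.4, the class of Myf5 and Myog, and 87.6% at 0.6 or more, the class of Six4 and Met.

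Short sequences bound by the factors named here were searched on both strands in the 200 bp around each summit. The E-box CAGCTG, bound by MYOD family proteins, was found in 11 of 46 member regions (23.9%, against 15.6% of all regions). Among them were the Pax3 intron, the Pax3 promoter, the Lbx1 region over the TSS and the Myod1 upstream region. All the others lay in the Pax7 window or in Ppfia4 and were called in WT rep1 alone. The E-box CACCTG was found in 14 (30.4%, against 18.1%), among them the WT-specific region of Lbx1. All the others were called in a single library, and most lay in the Pax7 window or in Ppfia4. The MEF3 core TCAGGTT, bound by Six4, was found in 5 (10.9%, against 2.71%). These included the Six4 promoter and, called in WT rep1 alone, regions of the Pax7 window and of Ppfia4. A TCAGGTT match cannot be a CACCTG match at the same bases. The homeodomain core TAATTA was found in 2 (4.35%, against 4.04%), and the GLI consensus TGGGTGGTC in 0, against 0.304% of all regions. In the promoter table, of which 3.85% holds TCAGGTT, it occurred at Myog, where nothing was called, and at Six4. The Six4 match begins 114 bp after the upstream TSS, under the peaks of WT rep1, Shh-/- rep1 and Shh-/- rep2. CACCTG occurred at Met (19.7% of promoters), whereas CAGCTG (15.7%), TAATTA (4.48%) and TGGGTGGTC (0.189%) occurred in none of the 5 member promoters.

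Other muscle genes were read by promoter calls in the same way, to be read beside the shares over all protein-coding genes (60.4% in WT rep1, 39.2% in WT rep2, 17.3% in Shh-/- rep1 and 51.3% in Shh-/- rep2). Of 9 further muscle regulators (Eya1, Eya2, Cxcr4, Gab1, Myf6, Msc, Tcf21, Meox2 and Mef2c), 6 were called in WT rep1, 4 in WT rep2, 1 in Shh-/- rep1 and 7 in Shh-/- rep2. Gab1, the adaptor that carries the signal of the Met receptor, was called in all 4 libraries, and Myf6 and Tcf21 in none. Of 10 genes of the contractile apparatus and other products of differentiated muscle, 4 were called in WT rep1, 1 in WT rep2, 1 in Shh-/- rep1 and 2 in Shh-/- rep2. Myl1, Actc1, Acta1, Tnnt1, Myh3 and Chrna1 were called in none. Mylpf was called in all 4, but its peaks also overlapped the promoter of Tbc1d10b. Markers of other cell types that a bud or its dissection could hold were counted in the same way. Limb ectoderm had 2 of 6 promoters called in WT rep1, 0 in WT rep2 and Shh-/- rep1, and 1 in Shh-/- rep2. Endothelium had 2, 0, 0 and 1 of 5, neural tube 3, 0, 0 and 1 of 6, and neural crest and glia 2, 0, 0 and 0 of 3, in the order of the libraries. Pax3 and Pax7 are also active in the dorsal neural tube and neural crest, and the part of such cells in their regions was not tested.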

How the data were processed

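ATAC-seq libraries from 2 WT and 2 Shh-/- posterior forelimb buds fall into groups by the genotype that their titles give. The authors aligned reads to mm10 and called peaks separately in each library (MACS2, q-value below 0.05, 200 bp window). The submitters' processing notes name Bowtie2 2.2.5 and MACS2 2.1.0. Read filters and any shift of reads to the Tn5 cut were not given in the sources used here. Libraries had 18 cycles of PCR.

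The deposited unit used here is the peak score (column 5 of each list), together with the deposited start, end and summit positions. The scale of the score is taken from the file format, since the lists do not state it. The lowest scores were 14 in both WT libraries, 19 in Shh-/- rep1 and 18 in Shh-/- rep2, and 3 further columns (fold, p and q) held 0 throughout. The lists hold no counts, so the depth reached by each library is not known from them, and no count model was fitted. The study gives a target depth common to its ATAC-seq libraries.

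Peaks that shared at least 1 bp were joined into regions, annotated with GENCODE M21 (basic set) on GRCm38.p6. A region with peaks of several libraries takes its summit from the best ranked peak. Alternatives were a score minimum of 50, lists cut to 5589 peaks, windows of 10 kb and 100 kb, other promoter definitions and leaving out each library. Peaks tied at the cut were ordered by chromosome name and position. Python 3.11.15, numpy 2.4.6, scipy 1.17.1, pysam 0.24.0 and matplotlib 3.10.9 were used, and the scripts were tested on simulated peaks. All 8 members are described, with every region called in 3 or 4 libraries, every genotype-specific region and the best ranked distal region of each window, except in the Six4 window. Details of 2 regions there, 1 of them called in all 4 libraries and the best ranked distal one, are not reported here, nor are 2 genes of the lists, but these regions remain in the counts. Genes of the other lists are named singly only where called in all 4 libraries or in none. The members and lists were chosen with earlier results of these data known. The replicates are separate embryos.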

Additional observations from a re-analysis of the deposited data

How the results depend on the processing

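The difference between WT and Shh-/- in regions called changed sign under 3 of 11 alternatives, of which 1, the replicate block, could not change it. It was -1.50 with a score of at least 50 and -1.50 at equal list size (the top 5589 peaks of every list), and it ranged from -2.50 to 34.5 when 1 library was left out. The difference in share of the list was -0.0318, -0.0268 and from -0.0176 to 0.0481 percentage points in the same settings. Both were negative only without WT rep1 among the leave-one-out values. At equal list size the windows held 0, 1, 3 and 1 peaks in WT rep1, WT rep2, Shh-/- rep1 and Shh-/- rep2. The count for WT rep2 depended on the order of tied peaks, which left out the Pax7 peak of that library. With the replicate number as a block the differences are the same by arithmetic, 16.0 and 0.0153, with p = 1.0 for each (exact sign-flip permutation test, smallest p 0.5). The replicate numbers mark no shared litter in the labels.

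The WT-specific count of 1 was 0 with a score of at least 50, 0 at equal list size, and 1 to 32 with 1 library left out (3 without WT rep1 and 32 without WT rep2). The Shh-specific count of 0 was 0 to 2 with 1 library left out (1 without WT rep1 and 2 without Shh-/- rep1). The called progenitor promoters became 0 in WT rep2 with 500 bp either side of the TSS. With a score of at least 50 they were 2 in WT rep1, 1 in WT rep2 and 2 in Shh-/- rep2, and at equal list size 0, 1 and 1. The differentiation genes stayed at 0 in every library. These promoter alternatives could not change that, since each only narrows what counts as a call. The cause of these changes was not tested. Lists of unequal length, with the depth reached by each library not known from them, limit every comparison of calls, and with 2 libraries a group no p-value could pass 0.05.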

Other observations

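The promoter peaks shared with other genes bear on the muscle list. The peaks at Mylpf, a fast muscle myosin light chain, ranked at 0.740% in WT rep1, 5.56% in WT rep2, 2.33% in Shh-/- rep1 and 1.66% in Shh-/- rep2. These were the best ranks among the 10 genes of differentiated muscle, and the same peaks overlapped the promoter of Tbc1d10b, so the gene they belong to cannot be told apart here. The peaks at Gab1 ranked at 5.05%, 21.7%, 34.2% and 18.3% in the same order and also overlapped the promoter of Gm31105.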
